A study of Rattus norvegicus with 15 samples.

Results

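The transcripts described here encode 10 enzymes of glycolysis and lactate metabolism: the hexokinases Hk1 and Hk2, Gpi, Pfkl, Aldoa, Tpi1, Pgk1, Eno1 and the lactate dehydrogenase subunits Ldha and Ldhb. They were taken by name from the 22436 genes of a deposited expression table, without regard to their values, and all 10 were present. Prostate tissue of SD rats was sequenced (RNA-seq) in a study of low-intensity pulsed ultrasound (LIPUS) in a model of chronic prostatitis with pelvic pain. The 15 samples comprised 5 untreated controls (Control), 5 of the model without ultrasound (Model) and 5 of the model given ultrasound for 4 weeks (LIPUS), with replicate numbers 6 to 10 in each group. The intensity of the ultrasound was 1.0 W/cm2 by the sample titles and 1.5 W/cm2 by the treatment field. The labels name no way of inducing the model, no age and no prostate lobe. Nor do they tell whether each sample was a different animal. The p-values therefore reflect variation among the deposited samples, part or all of which could be technical.

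Glycolysis turns glucose into pyruvate in the cytosol. Hexokinases trap glucose in the cell by adding a phosphate, phosphofructokinase makes the step that commits the sugar to the pathway, and the enzymes from aldolase to enolase carry the split sugar towards pyruvate with a gain of ATP. Lactate dehydrogenase exchanges pyruvate and lactate, with the A subunit (Ldha) prominent in tissues that make lactate and the B subunit (Ldhb) in tissues that use it. Many of these genes are textbook targets of the hypoxia-inducible factors, which bind ACGTG or GCGTG, and of MYC, which binds CACGTG. Prostate epithelium is known for secreting citrate in place of burning it in full, which makes glucose use a long-standing subject in this tissue.

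The stretches of DNA around the start sites show how unevenly those motifs are spread over the genes whose levels are compared here. The 300 bases from 250 before to 50 after the RefSeq start site (build GRCr8, in the direction of the gene) were available for 9 of the 10 genes. Both lactate dehydrogenase genes, Hk2 and Tpi1 are shown: the A and B subunits differ in the number of matches, and Hk2 and Tpi1 lay at opposite ends of the differences between Model and Control. Capitals mark the 3 motifs named above on either strand, so that their reverse complements are also in capitals.
Ldha, chr1:106507842-106508141, plus strand: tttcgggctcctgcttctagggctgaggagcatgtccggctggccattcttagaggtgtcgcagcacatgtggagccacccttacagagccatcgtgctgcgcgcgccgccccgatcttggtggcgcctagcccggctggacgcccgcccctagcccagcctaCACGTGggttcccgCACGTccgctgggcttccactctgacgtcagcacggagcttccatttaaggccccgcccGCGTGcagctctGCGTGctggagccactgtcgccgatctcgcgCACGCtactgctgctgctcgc
Ldhb, chr4:177177359-177177658, minus strand: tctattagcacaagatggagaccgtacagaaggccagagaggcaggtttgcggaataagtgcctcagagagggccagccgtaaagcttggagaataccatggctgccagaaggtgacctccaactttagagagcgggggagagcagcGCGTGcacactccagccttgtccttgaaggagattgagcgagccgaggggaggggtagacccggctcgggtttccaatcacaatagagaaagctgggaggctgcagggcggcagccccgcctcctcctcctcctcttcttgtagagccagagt
Hk2, chr4:116841226-116841525, minus strand: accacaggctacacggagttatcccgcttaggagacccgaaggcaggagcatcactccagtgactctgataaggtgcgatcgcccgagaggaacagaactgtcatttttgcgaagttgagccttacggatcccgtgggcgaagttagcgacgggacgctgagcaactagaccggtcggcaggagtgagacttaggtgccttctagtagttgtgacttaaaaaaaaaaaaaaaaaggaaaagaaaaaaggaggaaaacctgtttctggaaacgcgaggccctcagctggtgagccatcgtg
Tpi1, chr4:159305039-159305338, minus strand: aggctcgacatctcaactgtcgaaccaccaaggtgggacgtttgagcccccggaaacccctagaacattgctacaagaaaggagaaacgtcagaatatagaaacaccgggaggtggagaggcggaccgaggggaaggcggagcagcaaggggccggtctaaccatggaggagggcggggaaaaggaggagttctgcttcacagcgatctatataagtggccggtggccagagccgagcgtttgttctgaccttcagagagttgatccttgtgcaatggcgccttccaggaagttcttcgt
Ldha held 3 matches of ACGTG and 3 of GCGTG at 6 positions. A match of CACGTG beginning at position −87, counted from 1 at the start site, overlaps 2 of the ACGTG matches, because CACGTG reads as ACGTG on both strands. Ldhb held 1 match, GCGTG at position −103, and Hk2 and Tpi1 held none. Among the genes not shown, Pfkl held 2 matches of GCGTG, Eno1 held 1 match of GCGTG, Gpi held 1 match of ACGTG, and Hk1 and Aldoa held none. In all, 5 of 9 promoters had ACGTG or GCGTG, against 41.6% of 33469 RefSeq promoters of the same length; ACGTG alone was found in 19.3% of them, GCGTG in 29.7% and CACGTG in 6.42%. A match describes these letters in this window and says nothing of binding.

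The libraries differed in composition between the groups, which sets the scale of every value below. Values are FPKM (fragments scaled to the length of the gene and the size of the library), and the libraries held 29675962 to 36402094 reads. The 13 mitochondrially encoded genes took 3.75% to 4.69% of reads in Control, 23.5% to 43.5% in Model and 43.0% to 83.3% in LIPUS. As deposited, the median of 12490 tested genes stood −0.90 log2 units lower in Model than in Control and −0.60 lower in LIPUS than in Model. Values are given on 2 scales: as deposited, and divided by the share of reads that came from nuclear genes (nuclear-scaled FPKM), on which these median differences were −0.37 and 0.10. Secretory transcripts of the prostate lobes also varied: the log2 ratio of ventral (Scgb1d2, Scgb1d4, Scgb2a1) to dorsolateral (Pbsn, Msmb) FPKM was 1.16 to 5.84 in Control and −0.68 to 4.52 in LIPUS. In Model it was −9.51 to −2.84 in 4 libraries and 7.79 in replicate 7, named Model_7 below. The summed FPKM of 8 luminal markers, 8217 to 179991 over the 15 libraries, showed prostate epithelium in each. In bulk tissue, fewer cells of a type and less RNA per cell cannot be told apart.

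In Control prostate the 10 transcripts spanned a wide range of levels, with aldolase at the top and Hk2, Ldhb, Hk1 and Pfkl at the bottom. Aldoa, the aldolase A that splits fructose bisphosphate, had the highest mean as deposited, 151 ± 34.99 FPKM (SD, n = 5), and its 5 libraries all lay above every Tpi1 value. Tpi1 followed at 63.8 ± 11.1 FPKM, Ldha at 58.5 ± 9.44, Pgk1 at 50.5 ± 8.49, Eno1 at 48.5 ± 6.88 and Gpi at 45.8 ± 6.66, and the ranges of neighbours in this order overlapped. A gap without overlap separated Gpi from Hk2, at 15.3 ± 3.30 FPKM. Ldhb at 11.3 ± 4.41, Hk1 at 10.1 ± 3.13 and Pfkl at 7.83 ± 1.27 FPKM came last, again with overlapping ranges. Summed over the 10 genes, Control had 483 ± 80.02 nuclear-scaled FPKM, Model 589 ± 143 and LIPUS 577 ± 110 (SD, n = 5), with ranges of 411 to 607, 439 to 817 and 387 to 666 that overlapped between all groups. As deposited the means were 463 ± 74.7 for Control, 378 ± 77.6 for Model and 226 ± 90.1 for LIPUS, whose range of 111 to 361 FPKM lay below the 395.5 to 578 of Control, while Model, at 319 to 465, overlapped both. In each group the same 6 genes (Aldoa, Tpi1, Ldha, Pgk1, Gpi and Eno1) held the upper 6 places by mean FPKM, and both hexokinases held the last 2 places in Model and in LIPUS.

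**Figure D1:**
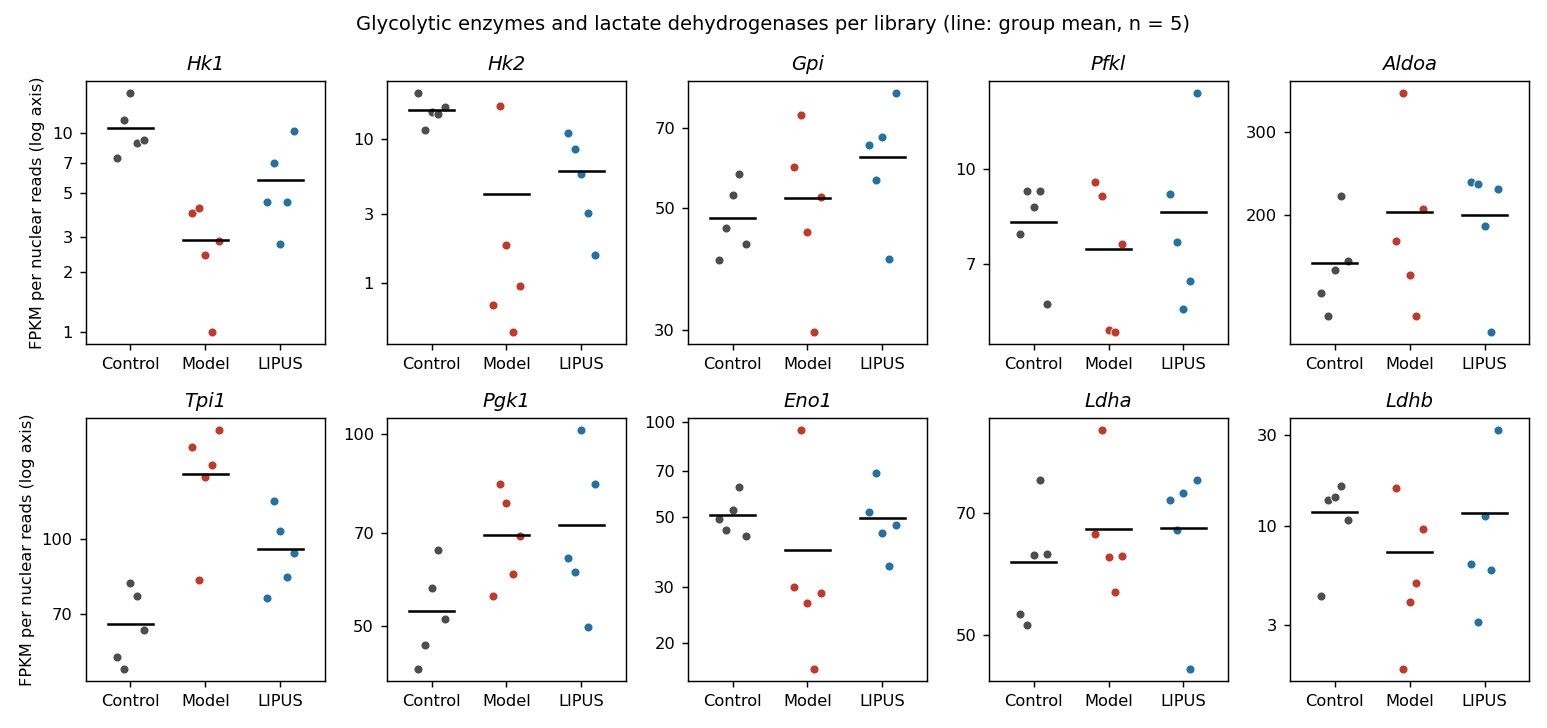
Nuclear-scaled FPKM of the 10 enzyme transcripts in each library, on log axes that differ between panels; points are libraries of Control (grey), Model (red) and LIPUS (blue), and lines are group means of 5. Every Model library lies below every Control library for Hk1 and above every Control library for Tpi1, while 1 Model library, Model_7, lies with the Control libraries for Hk2.

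Both hexokinase transcripts were lower in Model than in Control. Hk1 encodes the hexokinase that most tissues express, and its nuclear-scaled FPKM in Control replicates 6 to 10 was 7.49, 11.5, 15.8, 8.84 and 9.14. In Model replicates 6 to 10 it was 3.97, 4.19, 2.43, 0.992 and 2.85. In LIPUS replicates 6 to 10 it was 4.47, 7.03, 2.77, 4.46 and 10.1. Each Model value was below each Control value, while LIPUS overlapped both groups. From Control to Model Hk1 fell by 1.93 (log2; SE 0.40, adjusted p = 0.00194, limma with Benjamini-Hochberg adjustment over the 12490 genes). It remained past the threshold under all 27 other settings, with log2 differences from −2.27 to −1.55. Markers of several other cell types were also lower in Model than in Control. Their sums are given as deposited, so the smaller nuclear share of Model and LIPUS enters them. Summed FPKM of 6 endothelial markers was 13.8 to 24.9 in Control, 0.605 to 6.05 in Model and 0.760 to 2.81 in LIPUS. That of 6 smooth muscle markers was 994 to 2614, 82.8 to 645 and 196 to 316, and that of 5 fibroblast markers 582 to 1060, 58.7 to 152 and 74.3 to 203. That of 5 basal epithelial markers was 54.8 to 73.2, 4.90 to 43.8 and 8.89 to 79.7, and that of 5 adipocyte markers 23.9 to 268, 1.57 to 20.2 and 10.97 to 31.8. Between Model and Control 3 of 6 endothelial, 3 of 6 smooth muscle, 5 of 5 fibroblast, 4 of 5 basal and 4 of 5 adipocyte markers were called lower on the nuclear scale, where 22.9% of all tested genes were. The median log2 differences of these lists were −1.76, −1.58, −2.25, −2.34 and −4.25, beside −0.37 for all tested genes. In LIPUS against Model they were −0.45, 0.16, 1.02, 1.36 and 2.02, where Hk1 had 0.99. The luminal, erythrocyte, macrophage and skeletal muscle lists had medians of 0.43, −0.34, −0.39 and −0.45 in Model against Control. The part of any list in the differences of Hk1 and Hk2 was not tested.

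Hk2 encodes the inducible hexokinase of insulin-responsive and proliferating tissues, and its level in Model split into 2 parts. Its nuclear-scaled FPKM in Control replicates 6 to 10 was 21.0, 11.6, 15.5, 14.9 and 16.8. Model replicates 6 to 10 had 0.707, 17.0, 1.83, 0.454 and 0.956, resting on 52, 1134, 137, 40 and 94 recovered reads. In LIPUS it was 11.1, 8.57, 5.71, 3.08 and 1.56. Of the Model libraries 4 lay below every Control library and Model_7 lay within the Control range, while all 5 LIPUS libraries lay below Control. Hk2 fell from Control to Model by 3.19 on the log2 scale (SE 0.75, limma adjusted p = 0.00446), and by 4.01 (SE 0.49, limma adjusted p = 2.2e-05) without Model_7. Since Model_7 stood out by this same Hk2 value, the p-value without it is no independent support. With the ventral to dorsolateral ratio as a covariate the nuclear-scaled difference was −1.11 (SE 0.45, limma adjusted p = 0.0778) and did not pass. As deposited, the same covariate gave −1.73 (SE 0.60, limma adjusted p = 0.0328), which passed. Among all 12490 tested genes, 3.15% had a lower log2 difference between Model and Control than Hk2 and 10.9% a lower one than Hk1.

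The upper steps between the hexokinases and the triose phosphates showed no call on the nuclear scale. Gpi converts glucose 6-phosphate into fructose 6-phosphate, and its nuclear-scaled FPKM ranged from 40.2 to 57.5 in Control, 29.7 to 73.9 in Model and 40.3 to 80.9 in LIPUS. Pfkl, the liver-type phosphofructokinase, ranged from 6.02 to 9.21, 5.42 to 9.50 and 5.92 to 13.3, with LIPUS replicate 10 the highest. The log2 differences of Model from Control were 0.07 for Gpi (SE 0.24, limma adjusted p = 0.847) and −0.17 for Pfkl (SE 0.25, limma adjusted p = 0.650), and that of Gpi turned to −0.0718 without Model_7. Both changed sign under other scalings. Aldoa ranged from 122 to 219 in Control, 122 to 362 in Model and 113 to 235 in LIPUS, and its log2 difference of Model from Control was 0.28 (SE 0.29, limma adjusted p = 0.476). Aldolase A is also the muscle form, and the summed FPKM as deposited of 10 skeletal muscle markers was 129 to 835 in Control, 2.58 to 571 in Model and 21.4 to 84.5 in LIPUS. None of the 7 muscle markers tested was called between Model and Control or between LIPUS and Model on the nuclear scale. Model_7, the library with the highest nuclear-scaled Aldoa, had the lowest muscle sum, 2.58 FPKM, with Ckm and Mylpf among the markers listed at 0 in at least 1 Model library.

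Tpi1, which interconverts the triose phosphates that aldolase releases, was the 1 enzyme of the 10 called higher in Model than in Control. Its nuclear-scaled FPKM in Control replicates 6 to 10 was 57.1, 53.9, 81.2, 76.3 and 64.8. Model had 155, 82.4, 135, 142 and 169. LIPUS had 75.7, 120, 104, 83.5 and 93.8. All Model libraries lay above all Control libraries, Model_7 by the smallest margin, and LIPUS overlapped both groups. Tpi1 rose by 1.01 on the log2 scale (SE 0.21, limma adjusted p = 0.00210), and its log2 difference was 0.64 to 1.22 under 27 other settings, each past the threshold. Of the tested genes, 91.6% had a lower log2 difference. As deposited the difference was 0.44 (SE 0.36, limma adjusted p = 0.319), so that its call belongs to the nuclear scale. Pgk1, which makes the first ATP of the pathway, had nuclear-scaled FPKM of 42.8 to 65.8 in Control, 55.8 to 83.5 in Model and 49.9 to 101 in LIPUS. Its log2 difference of Model from Control, 0.39 (SE 0.21, limma adjusted p = 0.159), did not pass, but reached 0.60 (limma adjusted p = 0.0219) with median-of-ratios scaling.

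Eno1, the enolase that makes phosphoenolpyruvate, again had a Model library apart from the rest. Its nuclear-scaled FPKM in Control replicates 6 to 10 was 49.2, 45.4, 52.5, 62.2 and 43.7. Model had 30.0, 94.4, 26.8, 16.5 and 28.7. LIPUS had 52.0, 69.1, 44.4, 34.99 and 47.3. The value of Model_7 was the highest of all 15, and the other 4 Model libraries lay below every Control and every LIPUS library. With all libraries the log2 difference of Model from Control was −0.63 (SE 0.34, limma adjusted p = 0.176). Without Model_7 Eno1 fell by 1.01 (SE 0.21, limma adjusted p = 0.00151), where 13.5% of tested genes were called higher and 32.6% lower. Since Model_7 stood out by this same Eno1 value, that p-value is no independent support. With the lobe ratio as a covariate, all libraries included, the difference was 0.21 (limma adjusted p = 0.614), and quantile normalization gave −0.77 (limma adjusted p = 0.0256).

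The 2 lactate dehydrogenase subunits differed in how much they varied. Ldha had the smallest standard error of the 10 on the nuclear scale, and its nuclear-scaled FPKM was 52.9, 51.3, 62.3, 76.6 and 62.5 in Control replicates 6 to 10. In Model it was 66.1, 88.2, 62.0, 56.2 and 62.2. In LIPUS it was 72.6, 66.8, 73.9, 45.5 and 76.7. The 3 groups overlapped over most of their range, and the log2 differences were 0.13 for Model against Control (SE 0.19, limma adjusted p = 0.635) and −0.00322 for LIPUS against Model (SE 0.19, limma adjusted p = 0.993). The first of these turned to −0.10 under quantile normalization and −0.20 when scaled to the sum of nuclear FPKM.

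Ldhb was spread far more widely within each group. Its nuclear-scaled FPKM in Control replicates 6 to 10 was 4.27, 13.7, 14.2, 16.1 and 10.8. The Model values were 15.9, 1.77, 4.00, 5.03 and 9.59. Those of LIPUS were 6.30, 3.10, 11.2, 5.84 and 32.0. Control replicate 6 and Model_7, which had the highest lobe ratios of their groups, had the lowest Ldhb of their groups, LIPUS replicate 6, with the highest ratio in LIPUS, lay in the middle of its group, and LIPUS replicate 10, with the highest mitochondrial share, had the highest Ldhb of all. The log2 difference of Model from Control was −0.93 (SE 0.62, limma adjusted p = 0.267). With the lobe ratio as a covariate it was −2.003 (SE 0.67, limma adjusted p = 0.0340) and passed.

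Counted over the 10 genes, Model against Control gave 1 enzyme higher (Tpi1) and 2 lower (Hk1 and Hk2) on the nuclear scale, and 7 without a call. Of all tested genes 9.96% were called higher and 22.9% lower, so 1 and 2 of 10 are close to the share among all genes. Median-of-ratios scaling, which gives 1 result from both scales, called 1912 genes higher and 2525 lower. The median log2 difference of the 10 was −0.05, beside −0.37 for all tested genes. As deposited, 0 were higher and 5 lower, where 2.95% and 43.1% of tested genes were called. Hk1 fell by 2.47 (limma adjusted p = 9.5e-05), Hk2 by 3.69 (limma adjusted p = 0.00101), Eno1 by 1.19 (limma adjusted p = 0.0226), Ldhb by 1.48 (limma adjusted p = 0.0298) and Pfkl by 0.73 (limma adjusted p = 0.0364) on the log2 scale. The count of 5 fell to 3 without Control replicate 7 or 8 and to 2 without Control replicate 9, Model replicate 8 or Model replicate 9. In these refits 4587 to 4758 of the 12490 tested genes were called lower, beside 5382 with all libraries. Pfkl turned to 0.0413 with median-of-ratios scaling and 0.17 with quantile normalization.

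**Figure D2:**
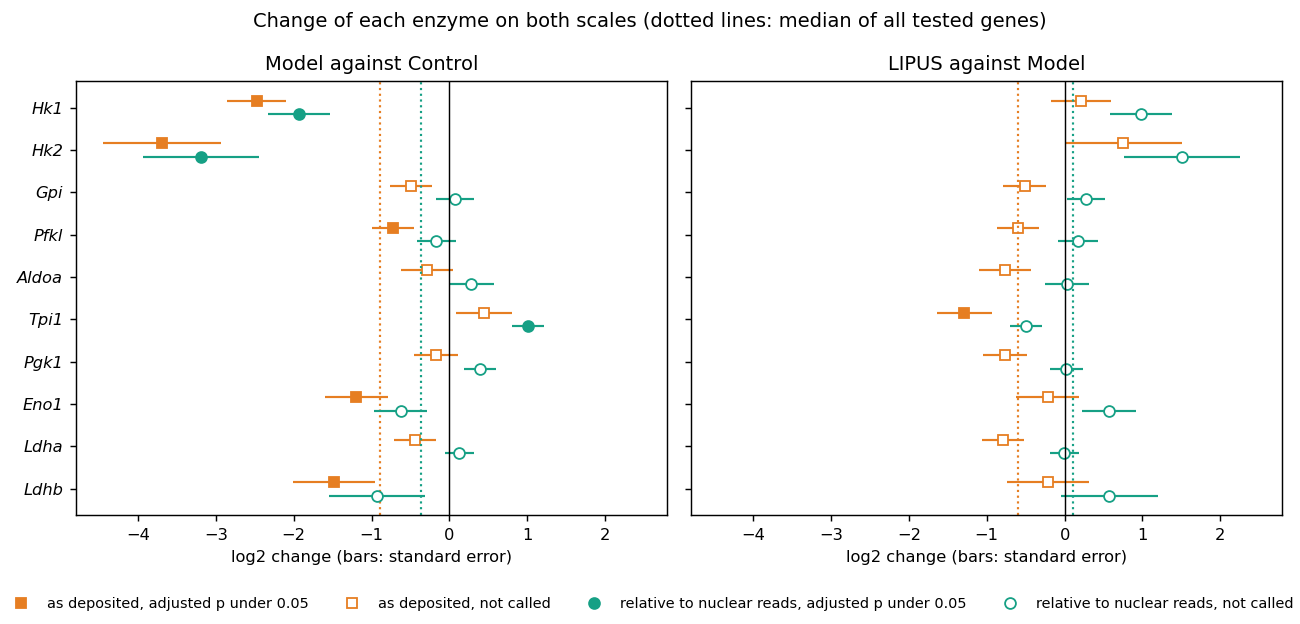
Log2 difference of each enzyme transcript between Model and Control (left) and LIPUS and Model (right), with standard errors, as deposited (orange squares) and relative to nuclear reads (green circles); filled symbols passed limma at an adjusted p under 0.05 and dotted lines are the medians of 12490 tested genes. Hk1 and Hk2 lie far to the left of both medians in Model against Control, and the differences of LIPUS from Model on the nuclear scale all have open symbols.

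In LIPUS against Model, no enzyme was called on the nuclear scale in the fit with all libraries. limma called 1.91% of tested genes higher and 0.608% lower, 315 in all, and 2765 had an unadjusted p under 0.05. Median-of-ratios scaling called 341 higher and 186 lower. Hk2 had the highest log2 difference of the 10, 1.52 (SE 0.75, limma adjusted p = 0.244), followed by Hk1 with 0.99 (SE 0.40, limma adjusted p = 0.163). Those of Eno1 and Tpi1 were 0.57 (SE 0.34, limma adjusted p = 0.337) and −0.50 (SE 0.21, limma adjusted p = 0.184). Groups overlapped for all 10 genes, and the share of all tested genes for which they did was not counted. As deposited 0 were called higher and 1 lower, where the shares of tested genes were 1.31% and 13.3%: Tpi1 fell by 1.29 (SE 0.36, limma adjusted p = 0.0324). That call was lost without Model replicate 6, 8, 9 or 10 or LIPUS replicate 6, with adjusted p from 0.0616 to 0.0939.

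The nuclear-scaled result of LIPUS against Model depended on Model_7. That library stood out by its Hk2 and Eno1 values in these same data, so p-values without it give no independent support. Without Model_7 limma called 18.2% of tested genes higher and 10.4% lower, and 4 of the 10 enzymes passed. Hk2 rose by 2.34 (SE 0.49, limma adjusted p = 0.00376), Eno1 by 0.96 (SE 0.21, limma adjusted p = 0.00543) and Hk1 by 1.16 (SE 0.40, limma adjusted p = 0.0441), and Tpi1 fell by 0.67 (SE 0.17, limma adjusted p = 0.0105) on the log2 scale. These are the 3 transcripts lower and the 1 higher in Model than in Control without the same library. Both comparisons share the Model samples, so the opposite directions are not independent of each other. Macrophages, which can depend on glycolysis, moved in the same comparison: 5 of 8 macrophage markers were called higher in LIPUS than in Model on the nuclear scale with all libraries, beside 1.91% of all tested genes in the same fit. Their summed FPKM as deposited was 74.7 to 96.9 in Control, 41.9 to 77.6 in Model and 83.0 to 116 in LIPUS, and their part in the enzyme levels was not tested.

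LIPUS against Control called none of the 10 enzymes on the nuclear scale, where 8.23% of tested genes were higher and 14.3% lower, and called all 10 lower as deposited, where 0.953% were higher and 74.4% lower. Median-of-ratios scaling called 1448 genes higher, 1782 lower and none of the 10 enzymes. On the nuclear scale Hk2 had a log2 difference of −1.67 (SE 0.75, limma adjusted p = 0.122), although its 5 LIPUS values all lay below Control. Hk1 had −0.95 (SE 0.40, limma adjusted p = 0.102), Tpi1 0.52 (SE 0.21, limma adjusted p = 0.0921) and Pgk1 0.42 (SE 0.21, limma adjusted p = 0.164). Without Model_7, whose spread enters the shared fit, Hk2 (limma adjusted p = 0.0125) and Tpi1 (limma adjusted p = 0.0238) passed, and Hk1 passed without LIPUS replicate 10 (−1.18, limma adjusted p = 0.0428). The shares of all tested genes called in these refits are not given here, so the passes cannot be set against them. Model_7 stood out by its Hk2 value, so the fit without it gives no independent support.

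**Figure D3:**
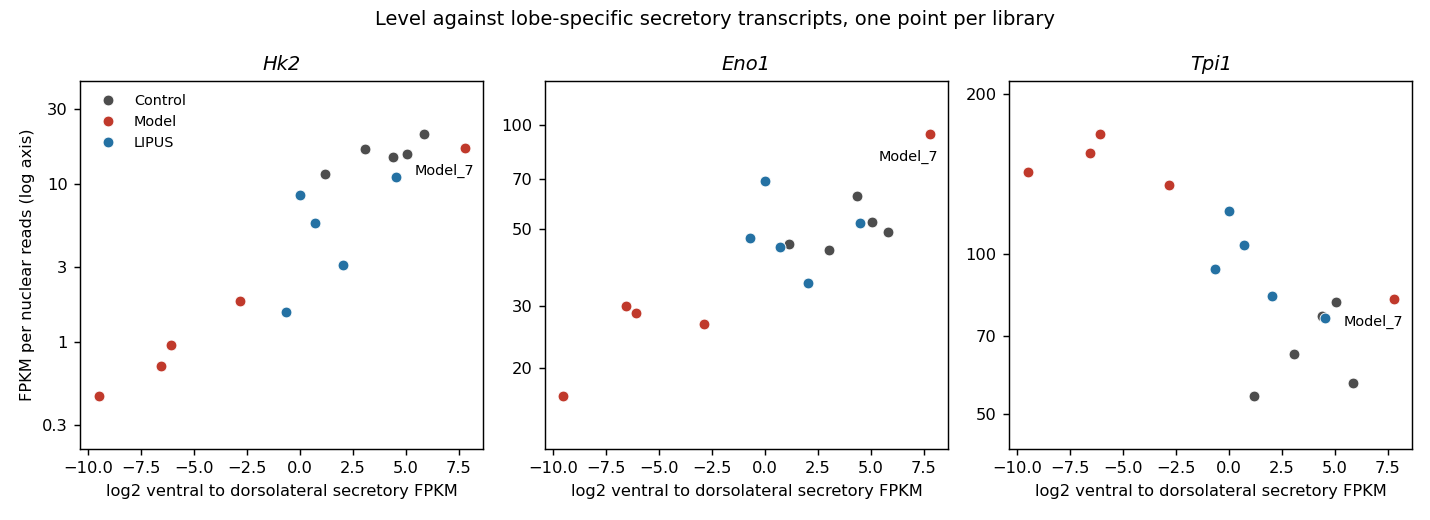
Nuclear-scaled FPKM (log axes) of Hk2, Eno1 and Tpi1 against the log2 ratio of ventral to dorsolateral secretory FPKM, 1 point per library, with Control grey, Model red and LIPUS blue. The 4 Model libraries with ratios from −9.51 to −2.84 hold the lowest Eno1 values and the highest Tpi1 values. Model_7, at 7.79, lies with the Control libraries for Hk2, just above all of them for Tpi1 and above all other libraries for Eno1.

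Within Model the lobe ratio separated the same library as these 3 enzymes did. The 4 Model libraries with ratios of −2.84 or less had Hk2 of 0.454 to 1.83, Eno1 of 16.5 to 30.0 and Tpi1 of 135 to 169 nuclear-scaled FPKM. Model_7, with the highest ratio of the 15, had 17.0, 94.4 and 82.4. LIPUS replicate 6, with the highest ratio of its group, had the highest Hk2 (11.1) and the lowest Tpi1 (75.7) of its group. LIPUS replicate 10, with the lowest ratio, had the lowest Hk2 (1.56). Between these libraries Hk2 ran against the ratio: it was 3.08, 5.71 and 8.57 in LIPUS replicates 9, 8 and 7, at ratios of 2.04, 0.704 and 0.00977. Eno1 did not follow the ratio within LIPUS: replicate 9, with the second highest ratio (2.04), had the lowest Eno1 (34.99), and replicate 7, at a ratio of 0.00977, the highest (69.1). Nor did Tpi1 within Control, where replicate 7 had both the lowest ratio (1.16) and the lowest Tpi1 (53.9). With the ratio in the nuclear-scaled fit Hk1 (−1.59, limma adjusted p = 0.0237) and Tpi1 (0.64, limma adjusted p = 0.0349) still passed between Model and Control. Hk2 did not pass on this scale, though it did as deposited. The ratio itself differed between the groups, so lobe content and group cannot be told apart for any of these enzymes. That includes Hk1 and Tpi1, for which passing this fit does not separate the 2.

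Ratios of 2 transcripts within a library do not depend on how the library is scaled, and 6 were compared in 3 comparisons by two-sided exact permutation over all splits of 5 against 5. None of the 18 passed after Benjamini-Hochberg adjustment (smallest adjusted p = 0.214). The log2 ratio of Hk2 to Hk1 was 1.48, 0.00883, −0.03, 0.75 and 0.87 in Control replicates 6 to 10 and −2.23, 1.98, −0.38, −0.93 and −1.45 in Model (difference −1.22, exact p = 0.151). The log2 ratio of Ldha to Ldhb averaged 2.48 ± 0.67 for Control, 3.52 ± 1.32 for Model and 2.94 ± 1.14 for LIPUS (SD, n = 5), and Model differed from Control by 1.04 (exact p = 0.151). Pfkl was set against Pfkm, the muscle-type phosphofructokinase: their log2 ratio averaged −0.21 ± 0.40 for Control, −1.24 ± 0.76 for Model and −0.09 ± 0.54 for LIPUS (SD, n = 5). Both steps of that ratio, −1.03 and 1.16, had an exact p of 0.0397. Ldha was also set against Pdha1, the subunit of pyruvate dehydrogenase that commits pyruvate to the mitochondrion, and their log2 ratio was 0.13, 0.35, 0.31, 0.16 and 0.34 in Control replicates 6 to 10. In Model it was 1.33, 0.12, 1.31, 1.26 and 1.66, and in LIPUS 0.09, 0.17, 0.89, 0.38 and 0.52.

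In 4 Model libraries Ldha thus exceeded Pdha1 by more than in any Control or LIPUS library, and Model_7 was the exception. The differences were 0.88 for Model against Control and −0.72 for LIPUS against Model, each with an exact p of 0.0476. Ldha itself differed little between the groups, while the nuclear-scaled FPKM of Pdha1 averaged 51.4 ± 10.4 for Control, 35.1 ± 26.0 for Model and 51.1 ± 13.7 for LIPUS (SD, n = 5). Model_7 stood out by its Hk2, Eno1 and Ldha to Pdha1 values in these same data, so ratio tests without it give no independent support. Without Model_7 6 of the 18 ratio tests passed in exact permutation tests. They were Hk2 to Hk1 in Model against Control (−1.87, adjusted p = 0.0357), Eno1 to the neuronal enolase Eno2 in Model against Control (−1.11, adjusted p = 0.0357), and Pfkl to Pfkm (−1.35, adjusted p = 0.0476, and 1.48, adjusted p = 0.0357) and Ldha to Pdha1 (1.13, adjusted p = 0.0357, and −0.98, adjusted p = 0.0476) in Model against Control and LIPUS against Model.

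**Figure D4:**
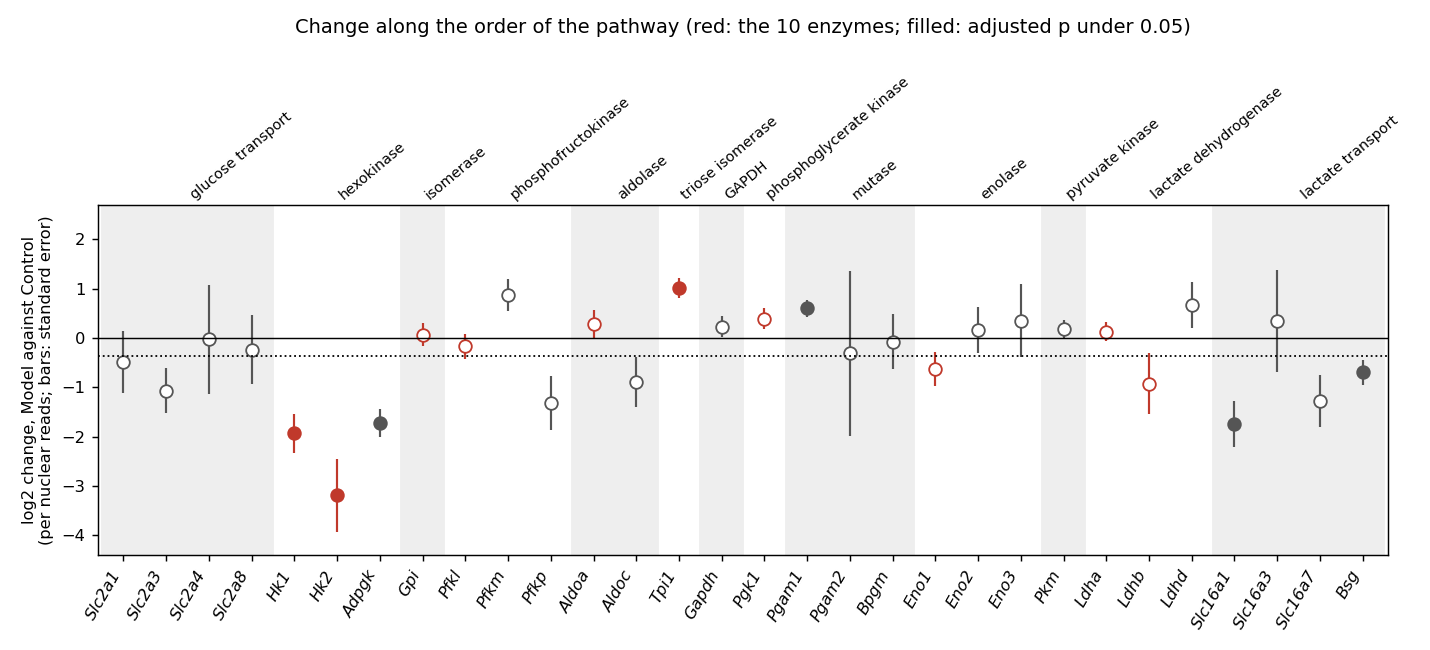
Log2 difference between Model and Control on the nuclear scale, with standard errors, for tested genes in the order of the pathway from glucose transport to lactate transport; red symbols are the 10 enzymes, filled symbols passed limma at an adjusted p under 0.05, and the dotted line is the median of all tested genes. Hk1, Hk2 and Adpgk are the filled points at the phosphorylation of glucose, with Tpi1 and Pgam1 above 0 and Slc16a1 and Bsg below it.

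The counts of the pathway lists between Model and Control on the nuclear scale stand beside the 9.96% of all tested genes called higher and the 22.9% called lower. Of 12 other glycolytic enzymes tested, 1 was higher and 1 lower, and the median log2 difference of the list was 0.17 beside −0.37 for all tested genes. Adpgk, a glucokinase that uses ADP, fell by 1.72 (from 19.2 ± 3.37 to 5.89 ± 1.60 nuclear-scaled FPKM, SD, n = 5; limma adjusted p = 0.000361), and Pgam1, a phosphoglycerate mutase, rose by 0.60 (limma adjusted p = 0.0163). Gapdh and the pyruvate kinase Pkm had log2 differences of 0.23 and 0.19 (limma adjusted p = 0.430 and 0.462). Of 8 transporters, 0 were higher and 2 lower, near the share among all genes: the monocarboxylate transporter Slc16a1, which carries lactate and pyruvate, fell by 1.74 (from 3.05 ± 1.16 to 0.843 ± 0.346 nuclear-scaled FPKM; limma adjusted p = 0.00959), and its chaperone Bsg fell by 0.70 (limma adjusted p = 0.0454). The call of Bsg was lost under 13 of 27 other settings, among them leaving out any Control library, Model replicate 6, 8 or 9 or LIPUS replicate 6 or 8 (adjusted p from 0.0532 to 0.0994). The glucose transporter Slc2a1 had a log2 difference of −0.49 (SE 0.63, limma adjusted p = 0.581).

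Among 13 regulators 2 were higher and 6 lower in Model than in Control, with a median log2 difference of −0.81, where 9.96% and 22.9% of all tested genes were called. Txnip, which restrains glucose uptake, fell by 1.36 (limma adjusted p = 0.00416), and the prolyl hydroxylase Egln2, which marks hypoxia-inducible factors for breakdown, rose by 1.02 (limma adjusted p = 0.00475). The fructose bisphosphate regulators Pfkfb2 and Pfkfb4 went opposite ways, with log2 changes of −2.22 (limma adjusted p = 0.00853) and 1.21 (limma adjusted p = 0.0112). On the nuclear scale Pfkfb2, like Hk2, lost its call with the lobe ratio as a covariate (−0.64, limma adjusted p = 0.210), and so did Pfkfb4 (1.02, limma adjusted p = 0.0754). Hif1a had a log2 difference of −0.99 (SE 0.45, limma adjusted p = 0.103). Of 8 genes of the hypoxia response 1 was higher and 3 lower, with a median of −0.33, close to the −0.37 of all tested genes: the collagen hydroxylase P4ha1 fell by 3.14 (from 10.97 ± 1.79 to 1.30 ± 0.812 nuclear-scaled FPKM; limma adjusted p = 2.13e-05), the vasoactive peptide gene Adm by 4.79 (from 73.7 ± 21.5 to 6.23 ± 8.37; limma adjusted p = 0.000811) and the vessel growth factor gene Vegfa by 0.98 (limma adjusted p = 0.0206). Ankrd37 rose by 1.26 (limma adjusted p = 0.0118). P4ha1 was also the 1 gene of these lists called in LIPUS against Model on the nuclear scale. There it rose by 1.89 (limma adjusted p = 0.0163), to 4.77 ± 1.95 nuclear-scaled FPKM. That call was lost when Control was left out of the fit (adjusted p = 0.154), with limma-voom on recovered reads (0.0634) and with the replicate block (0.0549).

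At the exits from glycolysis, 1 of 14 genes of pyruvate entry into mitochondria was higher and 2 lower in Model than in Control, no more than the 9.96% and 22.9% of all tested genes. The carrier subunit Mpc1 rose by 0.69 (from 73.1 ± 14.8 to 117 ± 11.7 nuclear-scaled FPKM; limma adjusted p = 0.0190), and its call was lost without Control replicate 7 (0.61, limma adjusted p = 0.0541). Pdk4, a kinase that shuts off pyruvate dehydrogenase, fell by 3.42 (limma adjusted p = 0.0143) from low levels, 0.296 to 9.22 in Control and 0 to 0.688 in Model. Pdhx, a structural part of that enzyme, fell by 1.44 (limma adjusted p = 0.0370), a call lost under 10 of 27 settings. These included leaving out Control replicate 6, 8, 9 or 10 or Model replicate 6, 8, 9 or 10, with adjusted p from 0.0632 to 0.0947. Of 7 genes of the pentose phosphate pathway, which branches off at glucose 6-phosphate, 1 was higher and 1 lower, again near those shares: Pgls rose by 1.52 (from 4.47 ± 0.446 to 12.99 ± 1.69; limma adjusted p = 0.00115) and Tkt fell by 0.92 (limma adjusted p = 0.00991). Of 3 gluconeogenic genes tested, Pck2, the mitochondrial enzyme that makes phosphoenolpyruvate, rose by 0.93 (limma adjusted p = 0.00847) and 2 gave no call. Quantile normalization ended the calls of Pgam1, Slc16a1, Vegfa, Pdk4 and Mpc1 (adjusted p from 0.0628 to 0.0840). In LIPUS against Model on the nuclear scale, none of the genes of these lists other than P4ha1 was called by limma. There 1.91% of all tested genes were called higher and 0.608% lower. As deposited, 6 of 14 pyruvate entry genes, 3 of 12 other glycolytic enzymes, 2 of 13 regulators and 2 of 7 pentose phosphate genes were lower. Of 8 hypoxia response genes 1 was higher as deposited, where 1.31% of all tested genes were called higher and 13.3% lower.

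The 10 enzymes did not vary as a block over the 15 libraries. On the nuclear log2 scale the correlation of each with the mean of the other 9 ranged from −0.61 for Tpi1 to 0.81 for Eno1, with 0.69 for Gpi, 0.67 for Hk1, 0.62 for Pfkl, 0.53 for Ldha and 0.48 for Aldoa. Hk2 had 0.27, Pgk1 0.08 and Ldhb 0.05. Outside the 10, the genes whose level followed their mean most closely were Grb2 (r = 0.945), Ilk (r = 0.941), Parp1 (r = 0.934), Slc25a12 (r = 0.931) and Ccny (r = 0.926, n = 15 libraries each). These values describe libraries that share a scaling and fall into 3 groups of different composition. All 5 were lower in Model than in the other groups by their means, and the Control mean of Grb2 was 38.5 nuclear-scaled FPKM, that of Model 28.0 and that of LIPUS 39.3.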

How the data were processed

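Per the labels' protocols, TRIzol was used to isolate prostate RNA and a VAHTS Universal V5 kit to prepare the libraries. The submitters' processing notes name HTSeq, HISAT2, DESeq2, fastp, SAMtools and R 3.2.0 with the genome build rn6, with no role or order, and the strand setting is not given in the sources used here. The deposited values are FPKM made by the authors, 1 value per gene and sample. Reads per gene were recovered from these FPKM: all 22436 genes gave whole reads within 0.001, and they served for library totals, the mitochondrial share and limma-voom. The SE and SD values reflect the spread among the deposited libraries, and read totals speak to counting error only. No 2 libraries of a group were copies of each other (lowest chi-square per degree of freedom 75.05).

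Genes above 0.5 FPKM in at least 5 samples, 12490 in number, were fitted as log2(FPKM + 0.1) with limma 3.58.1 in R 4.3.3 (all 15 samples, intensity trend, Benjamini-Hochberg adjustment over all tested genes), and called at an adjusted p under 0.05. The same fit was made on FPKM divided by the nuclear share of reads. On this scale fold changes of low genes are understated. The pooled spread assumes that groups vary alike. Reads from processed gene copies, which Tpi1, Aldoa, Eno1, Pgk1 and Ldha can share, were not separable. Ratios used exact permutation tests.

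The text names the 10 enzymes, partners of the ratios, up to 4 called genes per pathway list in Model against Control and 2 in LIPUS against Model, by the smallest p, and the 5 genes most like the mean of the 10. Gapdh, Pkm, Slc2a1 and Hif1a were named after their values were seen. The genes and lists were chosen with earlier results of these data known. Promoter sequences are those of RefSeq (GRCr8), and other coordinates were not used here.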

Additional observations from a re-analysis of the deposited data

Results flagged for a closer look

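In 7 of 78 groups of 5 values tested, 1 library lay apart from the other 4 by more than Dixon's 95% limit. Chance flags about 1 in 20 such groups where values are normally distributed, and FPKM were tested without logs. Each enzyme was tested on both scales, so the 78 are not separate tests and 7 cannot be set against that rate. Model_7 accounted for 5 of the 7, with Hk2 and Eno1 each flagged on both scales. Its nuclear-scaled Hk2 was 17.0 FPKM, where the other Model libraries had 0.454 to 1.83, and as deposited it was 9.60, where the others had 0.330 to 1.14. Its nuclear-scaled Eno1 was 94.4 FPKM against 16.5 to 30.0, and as deposited 53.3 against 12.04 to 22.0. Its log2 ratio of Ldha to Pdha1 was 0.12, below the 1.26 to 1.66 of the other Model libraries. LIPUS replicate 10 had a nuclear-scaled Ldhb of 32.0 FPKM, where the other LIPUS libraries had 3.10 to 11.2. LIPUS replicate 7 had a log2 ratio of Eno1 to Eno2 of 5.97, where the others had 2.93 to 3.80.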

How the results depend on the processing

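Alternatives were other pseudocounts, filters, scalings, spread models, a lobe covariate, limma-voom on recovered reads, the replicate number as a block and leaving out each library. On the nuclear scale 11 of the 30 enzyme differences changed sign under at least 1 other scaling, as did 19 of 30 as deposited, and 0 were called with opposite signs. Causes were not tested. Between Model and Control on the nuclear scale, quantile normalization turned Gpi to −0.0808, Pfkl to 0.17, Aldoa to −0.11 and Ldha to −0.10. Scaling to the sum of nuclear FPKM turned Gpi to −0.26, Aldoa to −0.0476 and Ldha to −0.20, median-of-ratios scaling turned Pfkl to 0.0413, array weights turned Ldha to −0.00108 and the lobe ratio turned Eno1 to 0.21. As deposited Pfkl turned to 0.0413 and 0.17 under median-of-ratios and quantile scaling. With a pseudocount of 1 the log2 ratios of Aldoa to Aldoc in LIPUS against Control and of Eno1 to Eno2 in LIPUS against Model turned to −0.0249 and −0.0562.

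For Model against Control as deposited, 5750 genes and 5 enzymes were called. The filter above 1 FPKM in at least 10 samples gave 3379 genes (fewer were tested), and array weights gave 8953 genes and 8 enzymes. The sum of nuclear FPKM gave 4610 genes and 3 enzymes, and the lobe ratio 4309 and 3. On the nuclear scale 4098 genes became 2636 with the stricter filter and 7841 with array weights, and the split of higher and lower calls was 1912 and 2525 with median-of-ratios scaling. For LIPUS against Model as deposited, 1820 genes and 1 enzyme were called. No filter gave 812 and 0, median-of-ratios scaling 527 and 0, quantile normalization 479 and 0, the sum of nuclear FPKM 248 and 0, only the 2 groups compared 3 and 0, the lobe ratio 62 and 0, and array weights 3637 and 2. The stricter filter gave 2 enzymes. On the nuclear scale 315 genes and 0 enzymes were called. A pseudocount of 0.01 gave 206 genes, no filter 146, the stricter filter 156, median-of-ratios scaling 527, only the 2 groups 10 and limma-voom 89, and array weights gave 2244 genes and 2 enzymes. For LIPUS against Control as deposited, 9415 genes and 10 enzymes became 3230 and 0 with median-of-ratios scaling, 3264 and 0 with quantile normalization and 2832 and 0 with the sum of nuclear FPKM. On the nuclear scale 2810 genes became 1754 with the stricter filter, and 0 enzymes became 2 with only the 2 groups, 1 with array weights and 2 with limma-voom.

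Leaving out each library in turn gave 4889 to 6979 genes and 2 to 5 enzymes for Model against Control as deposited. For LIPUS against Model as deposited it gave 8 (without Model replicate 9) to 4576 genes (without LIPUS replicate 7) and 0 to 5 enzymes. On the nuclear scale it gave 81 (without Model replicate 9) to 3573 genes (without Model_7) and 0 to 4 enzymes, and 0 to 2 enzymes for LIPUS against Control. The log2 difference of Gpi ranged from −0.0718 to 0.26, the log2 ratio of Hk2 to Hk1 in Model against Control from −1.87 to −0.81, that of Aldoa to Aldoc in LIPUS against Control from −0.0114 to 0.57, that of Pfkl to Pfkm in LIPUS against Control from −0.11 to 0.25, and that of Eno1 to Eno2 in LIPUS against Model from −0.51 to 0.34.

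The main fits treat the samples as unpaired. Deviations of same-numbered libraries from their group means correlated at −0.42 to 0.25, which cannot tell whether the replicate numbers pair the samples. With the replicate block, LIPUS against Model gave 3 genes and 0 enzymes as deposited and 95 genes and 0 enzymes on the nuclear scale, and Model against Control gave 3917 genes and 3 enzymes on the nuclear scale. The block of the ratios allows too few sign flips to pass the threshold. The lowest read total of an enzyme in a library was 32 (Hk2, LIPUS replicate 10).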
